A study of Homo sapiens with 5 samples.

Results

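The interferon-stimulated genes were followed in HLF cells, an established human hepatocellular carcinoma cell line, in which the deubiquitinase USP28 had been deleted and then put back. The list held 39 genes. Of these, 37 were in every one of the 3 deposited tables, BST2 was in the knockout table only and IRF7 was in none. There were 11102 genes in the knockout table, 12342 genes in those of the reconstitution, and 10976 genes in every table. The list was chosen by a measured value of these data, because IFI27 was among the genes with the largest rise in the knockout. No test was made on it, and all values below are a description.

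Cells were compared in 5 conditions with 1 sample listed for each. USP28-Ctrl cells carried a control guide RNA and USP28-KO cells a guide RNA against USP28 for CRISPR/Cas9. The knockout cells were selected with puromycin and picked as single clones, so a difference of the clone from its parent line cannot be told apart from the deletion. In the other conditions, USP28-KO cells were transduced with a lentivirus that carried no USP28 (USP28-KO vector), wild-type USP28 (USP28-WT) or a point mutant that cannot form dimers (USP28-M), the last 2 with an HA tag. These 3 conditions therefore all share the deletion. The average level of USP28, in which reads of the introduced gene cannot be told from those of the endogenous one, was 5.15 in the knockout experiment and 9.79 in the reconstitution experiment.

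Interferons are secreted when a cell senses foreign or misplaced nucleic acid. They bind receptors on the same or neighbouring cells, Janus kinases are activated, and ISGF3, a complex that contains STAT2 and IRF9, binds the interferon-stimulated response element (ISRE) in promoters. The genes switched on in this way detect viral RNA, degrade or mask it, block entry of viruses, or attach the ubiquitin-like protein ISG15 to other proteins. Many tumour cells keep a low expression of them without added interferon.

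The level given here is the average log2 CPM, the base 2 logarithm of a read count scaled to the size of the library, that the authors' analysis gave for each gene over all libraries of an experiment. For the knockout experiment it pools USP28-Ctrl and USP28-KO, and for the reconstitution experiment it pools the vector, USP28-WT and USP28-M. It does not separate the conditions and carries no standard deviation. The fold changes of the authors between conditions were not used, so no value below says how a gene responded to the loss or return of USP28. The average of IFI27 in the knockout experiment contains the value by which the list was chosen. In bulk RNA, fewer cells that express a gene and less RNA per cell cannot be told apart.

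An ISRE core stood in the promoters of many of these genes, and examples are shown because most of the genes with a listed promoter share this sequence. RefSeq promoters of the build GRCh38.p14, running from 250 bases before the start site to 50 bases after it, were found for 34 of the 39 genes. IFIT2, IFITM2, IRF7, OAS2 and OASL had no promoter in the table. The core was searched as GAAANNGAAA and, for the opposite strand, as TTTCNNTTTC. Each line below is read 5′ to 3′ on the strand of the gene, with the core in capitals.
ISG15: tcgggaaaggGAAACCGAAActgaagccaa
IFIT1: cactttccccTTTCGGTTTCcctaggtttc
IFI6: ggagagagggGAAAATGAAActctgcagag
IFITM3: aaactgttgaGAAACCGAAActactgggga
OAS3: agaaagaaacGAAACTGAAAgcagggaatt
DDX60: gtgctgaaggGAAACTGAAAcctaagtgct
SAMD9: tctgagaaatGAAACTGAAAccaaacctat
BST2: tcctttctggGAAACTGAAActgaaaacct
The windows lie at chr1:1013380-1013409 on the plus strand for ISG15, chr10:89392510-89392539 on the plus strand for IFIT1 and chr1:27672329-27672358 on the minus strand for IFI6. IFITM3 has its window at chr11:320876-320905 on the minus strand, OAS3 at chr12:112938321-112938350 on the plus strand and DDX60 at chr4:168318821-168318850 on the minus strand. For SAMD9 it is chr7:93118096-93118125 and for BST2 chr19:17405741-17405770, both on the minus strand. In IFIT1 the core reads along the opposite strand, and in the other 7 it reads along the strand of the gene.

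IFI27, a small mitochondrial and nuclear envelope protein that gave the list its reason, has a pair of ISRE cores on opposite strands within 23 bases. They are shown with the 250 bases before the first listed start site, chr14:94110486-94110735 on the plus strand, with capitals from the first base of the upstream core to the last base of the downstream core.
IFI27 upstream: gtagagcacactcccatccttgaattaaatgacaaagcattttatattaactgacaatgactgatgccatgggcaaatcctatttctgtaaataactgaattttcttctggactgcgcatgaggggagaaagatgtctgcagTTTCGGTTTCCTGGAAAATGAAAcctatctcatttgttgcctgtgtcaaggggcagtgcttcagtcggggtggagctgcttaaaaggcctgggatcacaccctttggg
The upstream core began 108 bases and the downstream core 95 bases before that start site. A GAS core, the gamma-activated site of interferon-responsive promoters, here searched as TTCNNNGAA, overlapped both of them. A second listed start site of IFI27 lies further downstream, and the same cores began 187 and 174 bases before it.

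An ISRE core was found in the promoters of 23 of 34 genes (67.6%). The share was 18 of 32 (56.3%) among the promoters of another list of interferon-stimulated genes, and 322 of 8795 (3.66%) among the other genes of every table. Over all 27305 genes with a promoter it was 4.38%. A GAS core was found for 10 of the 34 (29.4%) and for 9.38% of all genes. When the spacing between the GAAA copies was allowed to be 1, 2 or 3 bases, 28 of the 34 (82.4%) and 10.54% of all genes had a match. The genes without an ISRE core were IFI35, OAS1, STAT2, IRF1, IRF9, DDX58, SAMD9L, XAF1, HERC6, UBE2L6 and TRIM25. A match is only a run of letters, and a missing match says nothing of binding outside these windows.

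The cores lay close to the start. Of 46 cores in all listed promoters, 24 had their centre within the 100 bases before the start site, 18 lay further upstream and 4 lay after it. These 46 correspond to 42 separate places, because some genes have more than 1 listed start and because PARP9 and DTX3L share a core. A promoter with more than 1 core was found for 14 genes. ISG15 had overlapping cores, IFI6 had 3 cores on the strand of the gene, and IFIT5 had 3 on the opposite strand. PARP9 and DTX3L lie head to head on chromosome 3, and their shared core, at chr3:122564322-122564351, is shown as each gene reads it.
DTX3L: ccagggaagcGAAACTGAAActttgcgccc
PARP9: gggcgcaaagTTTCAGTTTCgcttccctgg
The proteins of this pair work together, PARP9 as an ADP-ribosyltransferase and DTX3L as a ubiquitin ligase. Several others also lie side by side among the protein-coding genes of RefSeq. IFI44L neighbours IFI44 on chromosome 1, SAMD9 neighbours SAMD9L on chromosome 7, and OAS1, OAS3 and OAS2 form a run on chromosome 12. IFITM2, IFITM1 and IFITM3 form a run on chromosome 11. IFIT2 and IFIT3, and IFIT1 and IFIT5, are neighbouring pairs on chromosome 10 with 1 gene between the pairs.

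In level, the measured members sat near the middle of the listed genes of HLF cells. Genes that were not listed have no level. Of the 47 genes of the other list of interferon-stimulated genes, 33 were listed in the knockout and 37 in the reconstitution experiment. In the knockout experiment the median level of the members was 5.30, against 5.33 for all genes of the table, and their median percentile was 49.2, or 45.9 per kb of exon. In the reconstitution experiment the median was 4.89, against 4.90 for all genes, and the median percentile was 49.8, or 50.9 per kb. That percentile was 43.5 among genes of every table and 39.7 with a minimum log2 CPM of 3. By log2 CPM, above percentile 75 of all genes stood 8 of the 38 listed genes in the knockout experiment and 9 of 37 in the reconstitution experiment. Below percentile 25 stood 9 and 6. The members thus ranged over the whole table, from LGALS3BP at percentile 98.8 to BST2 at percentile 0.441 in the knockout experiment.

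The number of reads behind these averages was taken from the steps between the averages of the lowest genes. It came to 7691720 reads over all libraries of the knockout experiment, with 96.6% of 1110 low genes within 0.1 read of a whole number. For the reconstitution experiment it came to 30459900, and there 66.3% of 1234 low genes lay that close to a whole number, so this total is less certain. The depth of a single library is unknown. At these totals a member rested on a median of 302 and 903 reads in the 2 experiments, with the fewest for BST2 (40, exact 95% Poisson interval 28.6 to 54.5) and XAF1 (90, 72.4 to 111). Intervals cover counting error only, not the spread between libraries, which the averages do not show.

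Because longer transcripts give more reads, levels between genes were compared as log2 CPM per kb of exon. The length merges the exons of all annotated transcripts of a gene, so it can exceed that of the transcript expressed and lower the value. On this scale IFITM3, a membrane protein that blocks the fusion of viruses in endosomes, was highest at 8.34 in the knockout and 7.94 in the reconstitution experiment. LGALS3BP, a secreted glycoprotein, had a level per kb of 7.69 and 7.53. IFI6, which limits cell death and viral replication at membranes, had 7.997 and 6.79, and ISG15 had 6.91 and 6.55. These 4 genes led in both experiments. IFI6 and LGALS3BP changed places between the experiments. At the lower end per kb stood XAF1 at 0.84 and -1.16, SAMD9L at 0.15 and -0.97, and OAS2 at 0.75 and 0.93. ISG20, an exonuclease with 7.36 kb of merged exons, was lowest in the knockout experiment at -0.02. In the reconstitution experiment it had 0.54, above IFI27 (-0.10), IFI44L (-0.20) and SAMD9 (-0.57). Percentiles and places are ranks within a table. Without replicate values, neighbours in this order cannot be shown to differ.

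The levels of single genes between the experiments are set side by side below in log2 CPM. The authors normalized the tables separately. The experiments also differed in the cells (only the knockout experiment holds cells with endogenous USP28), in transduction with lentivirus and in depth, and these differences cannot be told apart. A gene's difference is its level in the reconstitution experiment minus that in the knockout experiment. Over all 10976 genes the median difference was -0.12, with the middle 50% between -0.50 and 0.20, so a gene has to be read against that shift.

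The interferon-stimulated genes of this list were more often lower than higher in the reconstitution experiment. This did not extend to the 33 genes in every table of the other list of interferon-stimulated genes. Those had a median difference of -0.02, with 18 lower, 15 higher and 2 at -1 or lower. The subtraction for GC content described below was not made for that list. Whether base composition has a part in the contrast was therefore not tested. For the members the median difference was -0.36, with 28 of 37 genes below 0 and 9 above it, where 59.9% of all genes were below 0. Of the 37, 26 lay below the shift of all genes, as 50% of all genes do by definition. A difference of -1 or lower, a halving or more, was found for 10 of 37 genes (27.0%), against 9.02% of all genes. None of the 37 had a difference of 1 or higher, as 1.52% of all genes had. The 10 were XAF1, SAMD9, IFI27, IFI44L, DDX60, IFIT1, IFI6, SAMD9L, IFIT5 and IFI44. IFI27 was picked for its rise in the knockout, so its own position here is not independent of the choice. Without it the median was -0.32 and the count 9. Members that rise together with IFI27 would share this dependence, so leaving it out does not make the rest independent of the choice.

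This difference moved with the base composition of transcripts. Across all genes with a transcript in GENCODE (10684 genes), the Spearman correlation of the difference with GC content was 0.478, while that with transcript length was -0.01. Genes are not independent replicates, and this is a description of the tables. In the lowest of 20 bins of GC content the median difference was -0.83 and 37.0% of genes were at -1 or lower. In the highest bin the median was 0.02 and the share 4.86%. The 10 interferon-stimulated genes at -1 or lower had a median GC content of 39.1%, the other members one of 51.1%.

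When the median of the genes in the same GC bin was subtracted, 4 of 37 members (10.8%) were at -1 or lower, against 3.75% of all genes, and 3 of 36 (8.33%) when IFI27, for which the list was chosen, was left out. The 4 were IFI27 (-1.93), XAF1 (-1.76), IFI6 (-1.30) and SAMD9 (-1.12). The median over the members was then -0.26, with 26 below 0 and 11 above it. IFI44L became -0.74, DDX60 -0.77, IFIT1 -0.89, SAMD9L -0.53, IFI44 -0.47 and IFIT5 -0.44. This subtraction was chosen after the values had been seen. IFI6, with a GC content of 56.1%, stood in a bin where 2.996% of the genes were at -1 or lower. IFI27 had a GC content of 50.5%, but its value is not independent of the choice of the list.

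The sensors of viral RNA were all lower in the reconstitution experiment, with a median difference of -0.82 over 4 genes, but after the subtraction for GC content the median was -0.46 and EIF2AK2 turned to 0.18. DDX60, a helicase linked to RNA sensing, had a level of 5.06 in the knockout and 3.69 in the reconstitution experiment, a difference of -1.36 (95% counting interval -1.59 to -1.14). IFIH1, which encodes the sensor MDA5 of long double-stranded RNA, had levels of 4.82 and 3.88, a difference of -0.94 and so just outside the threshold of -1. DDX58, which encodes RIG-I and is named RIGI in RefSeq, had levels of 4.95 and 4.25. EIF2AK2, the kinase PKR that halts translation when it binds double-stranded RNA, had levels of 6.23 and 5.82. Per kb of exon the 4 lay between 2.30 and 2.83 in the knockout experiment, and their transcripts have a GC content of 38.7% to 43.3%.

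The 2′-5′-oligoadenylate synthetases, which make the messenger that activates RNase L, were the group in which every gene was higher in the reconstitution experiment. Their median difference was 0.24, and 0.19 after the subtraction for GC content, with all 4 still above 0. OAS3 had levels of 7.89 and 8.18 (difference 0.29, 0.22 to 0.36). Per kb of exon it led the family at 4.84 and 5.13, and OAS2 was lowest at 0.75 and 0.93. OAS1 had levels of 4.64 and 4.97 (difference 0.34, 0.11 to 0.56). OAS2 rested on 81 reads in the knockout experiment and had levels of 3.40 and 3.58. OASL, a family member without synthetase activity that acts with RIG-I, had levels of 3.40 and 3.50, and the counting intervals of the last 2 differences included 0.

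The IFIT proteins, which bind viral RNA that lacks the cap of the host, were all lower in the reconstitution experiment, with a median difference of -0.83, but after the subtraction for GC content the median was -0.43 and IFIT2 turned to 0.06. IFIT1 had levels of 6.17 and 4.95 (difference -1.22, -1.38 to -1.07) and IFIT5 of 5.66 and 4.54 (difference -1.12, -1.30 to -0.94). IFIT3, a partner of IFIT1, had levels of 5.57 and 5.02. IFIT2 had levels of 4.29 and 4.12, and the counting interval of its difference of -0.17 included 0 (-0.43 to 0.09). The counting intervals of IFIT1 and IFIT5 did not overlap that of IFIT2, but they leave out the spread between libraries. After the subtraction for GC content IFIT1 was at -0.89, IFIT5 at -0.44 and IFIT3 at -0.41. Whether these 4 neighbouring genes differ among themselves was not tested.

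Among the transcription factors, STAT2 and IRF9 are both subunits of ISGF3. STAT2 had nearly level values of 6.02 and 6.01, and IRF9 had 6.499 and 6.22 (difference -0.28, -0.40 to -0.15). IRF1, a factor that interferon gamma induces and that binds related elements by itself, was higher in the reconstitution experiment, at 6.25 against 5.31 (difference 0.94, 0.77 to 1.11). The exons of IRF9 and IRF1 share sequence with other annotated genes. A share of 43.8% of the 50-base stretches of IRF9 and 21.98% of those of IRF1 also occur in other genes, on either strand, so their reads may have been split and their values are uncertain.

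All 3 IFITM genes were lower in the reconstitution experiment, with a median difference of -0.40. IFITM3 had 8.77 in the knockout and 8.37 in the reconstitution experiment, a difference of -0.40. IFITM1, its relative at the cell surface, had 5.70 and 4.89 (difference -0.81, -0.98 to -0.64), and it stayed at -0.93 after the subtraction for GC content. IFITM2 had 4.93 and 4.79. All 3 share between 32.0% and 35.2% of their 50-base stretches with each other or with further copies, so the split of reads between them is uncertain. BST2, which tethers budding viruses to the cell, had a level of 2.38 in the knockout experiment.

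The genes of ISG15 conjugation and its relatives had a median difference of -0.27, or -0.13 after the subtraction for GC content. Their differences ran from -0.44 to 0.96. None of the 8 was at -1 or lower, but 8 genes are too few to set this apart from the 9.02% of all genes. ISG15 itself had levels of 6.82 and 6.46. UBE2L6, the conjugating enzyme for ISG15, was higher in the reconstitution experiment, at 6.07 against 5.74. HERC6, a ligase of the same family as the human ISG15 ligase, had levels of 4.01 and 3.75. TRIM25, the ubiquitin ligase that acts on the RIG-I pathway, had the largest positive difference of all members, at 8.17 against 7.21 (0.96, 0.87 to 1.05).

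TRIM21, a cytosolic antibody receptor and ubiquitin ligase, had levels of 5.28 and 5.23. The PARP group was slightly lower in the reconstitution experiment. PARP14 had 6.20 and 5.76, PARP9 had 5.16 and 4.76, and DTX3L had 5.94 and 5.65. PARP9 and DTX3L, which share the core shown above, had differences of -0.40 and -0.28.

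The widest span was among the other effectors, 7 of which were at -1 or lower and 9 of 11 below 0. Of all genes, 9.02% were at -1 or lower and 59.9% below 0. Their median difference of -1.12 was -0.53 after the subtraction for GC content. At -1 or lower were then 4, or 3 without IFI27, against 3.75% of all genes. XAF1, an antagonist of the apoptosis inhibitor XIAP, had levels of 3.56 and 1.57 (difference -1.99, -2.41 to -1.57), and 34.7% of its 50-base stretches also occur in other genes. SAMD9, which restricts poxviruses and limits cell growth, had levels of 4.17 and 2.21 (difference -1.96, -2.30 to -1.62). Its neighbour SAMD9L had levels of 2.99 and 1.87. IFI27 had levels of 3.78 and 1.95 (difference -1.83, -2.21 to -1.45). In CPM this was 13.7 against 3.87, which corresponds to 106 reads (86.8 to 128) in the knockout and 118 reads (97.7 to 141) in the reconstitution experiment.

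IFI44L and IFI44, related proteins from neighbouring genes, had levels of 4.57 and 3.15, and of 5.59 and 4.53. IFI6 had levels of 7.79 and 6.59 (difference -1.20, -1.29 to -1.12) and rested on 1700 and 2925 reads, the most of the 10 genes at -1 or lower. The other genes of this group were closer to level. MX1, the dynamin-like GTPase that blocks influenza virus, had 4.64 and 4.50. IFI35 had 6.53 and 6.59, and LGALS3BP had 9.53 and 9.37. ISG20 had 2.86 and 3.42, a difference of 0.56 with a counting interval of 0.15 to 0.96.

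The presence of an ISRE core, which the list did not use as a criterion, is set beside the differences here. The 22 members in every table with a core had a median difference of -0.50, with 20 below 0 and 8 at -1 or lower. The 11 members with a promoter but no core had a median of -0.01, with 6 below 0 and 2, XAF1 and SAMD9L, at -1 or lower. Of these 11, IFI35, OAS1, DDX58, TRIM25 and XAF1 had a match at the looser spacing. The 4 members in every table without a listed promoter had a median of -0.02, with 0 at -1 or lower. After the subtraction for GC content the medians with and without a core were -0.43 and -0.11. At -1 or lower were then 3 of the 22 with a core, or 2 of 21 (9.52%) without IFI27. Of the 11 without a core it was 1 (9.09%), against 3.75% of all genes. Among other genes in every table, before that subtraction, the 322 with a core had a median of -0.20 with 11.2% at -1 or lower, and the 8473 without one had a median of -0.11 with 8.52%. No test was made of these differences.

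Other genes of the pathway were read from lists, and no subtraction for GC content was made for them. None of 10 interferon ligand genes, IFNB1 and IFNL1 among them, was listed in any table. Of 6 receptor genes, 5 were listed in both experiments. IFNAR1 and IFNAR2, the chains of the type I receptor, had levels of 6.39 and 6.01, and of 4.48 and 4.96, while IFNLR1, the specific chain of the type III receptor, was not listed. Among the kinases that signal from these receptors, JAK1 had levels of 8.17 and 8.80, TYK2 of 6.55 and 6.34, and JAK2 of 4.10 and 2.90, which put JAK2 at -1 or lower.

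Of 11 genes of nucleic acid sensing, 9 were listed in both, with 2 at -1 or lower and 1 at 1 or higher. TBK1, the kinase that activates IRF3, had levels of 5.65 and 4.36, and TLR3 of 2.48 and 1.30. TMEM173, which encodes STING, was the one above 1, with levels of 4.05 and 5.63. USP18, which removes ISG15 and dampens receptor signalling, had levels of 5.04 and 4.83. Of 47 other interferon-stimulated genes, 33 were listed in both, with a median difference of -0.02. Of these 18 were lower and 15 higher in the reconstitution experiment, and 2, GBP1 and NMI, were at -1 or lower (4.87 and 3.52 for GBP1, 5.34 and 4.32 for NMI). Beside these lists and that of the sensing genes, 59.9% of all genes were lower. Of all genes 9.02% were at -1 or lower and 1.52% at 1 or higher.

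The cell identity of the samples was checked with marker lists. The keratins KRT8 and KRT18 (11.2 and 12.0, and 10.7 and 11.2) and vimentin (11.7 in both) had high levels in log2 CPM. The other 3 of the 5 epithelial markers, EPCAM, KRT19 and CDH1, were not listed, and all 6 mesenchymal markers were. The liver markers ALB, AFP and HNF4A were not listed, and of 10 hepatocyte markers 1 was listed in the knockout and 3 in the reconstitution experiment. The one in both was FGB, a chain of fibrinogen, with levels of 6.003 and 3.20. Its difference of -2.80, without a subtraction for GC content, had the direction of most members and was larger than that of any of them. Whether FGB has a part in their differences was not tested. No endothelial marker was listed. Of 9 leukocyte markers, CD68 was the one listed in both experiments (6.86 and 7.73), and PTPRC was not listed. Of 5 markers of plasmacytoid dendritic cells, which secrete interferon, TCF4 alone was listed (4.22 and 3.43).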

How the data were processed

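RNA sequencing of HLF cells was deposited as 3 tables of comparisons, for USP28-KO against USP28-Ctrl and for USP28-WT and USP28-M against the USP28-KO vector. Per the submitters' notes and the methods of the study, RNA was extracted with TRIzol, libraries were made with a NEBNext Ultra kit, and the authors used bcl2fastq 2.20, STAR 2.5.4, hg19 and edgeR 3.26.8. The counting, its use of strand, the filter on low genes and the number of libraries per condition are not given in the sources used here.

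The deposited tables hold, per gene, an average log2 CPM that the authors computed with edgeR over all libraries of a fit, and the authors' log2 fold change, p-value, adjusted p-value and, in 2 tables, an F statistic. Columns of comparisons were not used. In the knockout table the header is shifted by 1 column. The 2 reconstitution tables hold the same average for all 12342 genes and were read as 1 experiment. The number of per-sample columns that matched no sample was 0.

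The members and all lists were chosen with earlier results of these data known. The text names every member and, beyond these, genes of the pathway and marker lists. One gene of the signalling list is not reported here. The design planned a count model for raw counts and no test for comparison tables, and the latter applied. Levels were ranked within a table (180 and 308 genes without a symbol were kept). Reads were taken from the steps of average CPM among the lowest 10% of genes, and these include the small prior counts in the authors' averages. The step finder recovered the known step on simulated data for both experiments. Those were Poisson counts made with the step found here, without spread between libraries beyond their size. The simulation therefore checks the search only and not the read totals. Counting intervals are 95% intervals. Lengths, GC content and shared 50-base stretches came from GENCODE release 29, which gave a length for 97.1% and 95.9% of genes and for all 39 members. Promoters came from RefSeq (GRCh38.p14). The software was matplotlib 3.10.9, scipy 1.17.1, pandas 2.3.3 and numpy 2.4.6 under Python 3.11.15.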

Additional observations from a re-analysis of the deposited data

How the results depend on the processing

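The average level gives no spread between libraries, so no result here has a replicate check, and differences between the experiments that the tables do not separate cannot be told apart. No paired analysis was possible because the tables hold no value per library. The planned alignment of proteins within families was not run. The median percentile in the knockout experiment, 49.2, was 49.0 among genes of every table, 52.6 with a minimum log2 CPM of 3, 45.9 per kb of exon and 48.6 without genes that lack a symbol. In the reconstitution experiment, 49.8 became 43.5, 39.7, 50.9 and 48.8 in the same order. The number of members above percentile 75 stayed between 6 and 12 under the first 3 of these, and was not counted without genes that lack a symbol. The reads of the knockout experiment were 7698230 from the lowest 5% of genes.

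The median difference of the members stayed negative throughout. From -0.36 it became -0.24 after subtraction of the median of all genes, -0.28 with a minimum log2 CPM of 3 in both experiments, -0.32 without IFI27 and -0.26 after subtraction for GC content. The last 2 alternatives were chosen after seeing the data. The count of members at -1 or lower, 10, became 6 with the minimum of 3, which removes 5 members (all genes 6.49%), and 4 after subtraction for GC content (all genes 3.75%). It was 7 after subtraction of the median (all genes 6.61%) and 9 without IFI27. Core counts of 28 and 22, the latter with 1 promoter a gene, stood beside 23.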
